A study of Mus musculus with 38 samples.

Results

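Plasmablasts and activated B cells, sorted from B cells stimulated in culture, were compared by RNA sequencing. The genes compared were chosen by level alone: 10215 of the 11441 genes with a unique name reached 1 RPKM (reads per kilobase of transcript, adjusted for the size of the library) in at least 2 of the 4 libraries. The whole series holds 38 samples. The cells came from C57BL/6 mice with the genotype Blimp1(GFP/+) Cd23(Cre/+) and were kept with lipopolysaccharide (LPS) for 4 days before sorting. The Blimp1 allele with GFP marks cells that transcribe the gene, and Cd23(Cre/+) was part of the genotype of every group used here. Tissue, age and number of mice are not stated. Plasmablasts (PB) were CD138+ GFP+ and activated B cells (Act B) CD138- GFP-, with 2 libraries each. Pre-plasmablasts (Pre-PB, CD138- GFP+, of the same genotype and stimulation, 2 libraries) are set beside them for named genes, and Pre-PB with the genotype Blimp1(GFP/fl) Cd23(Cre/+), sorted as CD138- GFP+ with high CD22 (2 libraries), entered the fit only to estimate the spread. PB and Act B thus share the GFP allele, and no RNA of cells without it is analysed here. Library 1 of each group has a number from an earlier run of library numbers and library 2 from a later run, and these runs are called series 1 and series 2 below.

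An activated B cell presents antigen, carries its antibody on the surface as a receptor and divides. A plasmablast still divides but already secretes antibody at a high rate, which needs a much enlarged endoplasmic reticulum (ER), its folding enzymes, its quality control and the vesicles that carry cargo to the Golgi. Blimp1, encoded by Prdm1, represses the genes of the activated B cell, while Irf4 and Xbp1 drive the secretory programme. When unfolded protein builds up, the ER sensors Ire1 (Ern1), Atf6 and Perk (Eif2ak3) raise the output of folding enzymes, and Perk also acts through Atf4 on amino acid supply.

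The short sequences recognised by these factors can be read in the promoters of genes from the groups described below. Promoter windows of 250 bases before to 50 bases after a start came from RefSeq on build GRCm38.p6, and 8071 of the 10215 genes tested had a window. The ER stress response element, spelled CCAAT and CCACG with 9 free bases between them and searched on both strands as every motif here, was in the windows of 8 of the 28 ER chaperone and folding genes that had one, 28.6%, against 0.137% of all 27025 genes with a window and 0.173% of the genes tested. Hspa5, Hsp90b1, Canx, Calr, Pdia6, Ero1b, Dnajc3 and Creld2 were the 8. The stretches of Hspa5 (chr2:34771985-34772083 on the plus strand) and Hsp90b1 (chr10:86705493-86705591 on the minus strand) are shown because these are key genes of the list. Those of Creld2 (chr15:88819480-88819578 on the plus strand) and Ero1lb (chr13:12565642-12565740 on the plus strand) are shown because these had the largest fold changes among the others. The motif is in capitals.
Hspa5: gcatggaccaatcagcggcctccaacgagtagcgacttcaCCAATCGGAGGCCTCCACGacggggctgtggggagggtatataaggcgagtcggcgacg
Hsp90b1: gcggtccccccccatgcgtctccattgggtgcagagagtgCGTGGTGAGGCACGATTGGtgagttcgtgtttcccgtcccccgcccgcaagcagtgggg
Creld2: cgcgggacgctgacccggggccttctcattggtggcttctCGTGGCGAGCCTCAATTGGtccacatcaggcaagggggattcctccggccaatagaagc
Ero1lb: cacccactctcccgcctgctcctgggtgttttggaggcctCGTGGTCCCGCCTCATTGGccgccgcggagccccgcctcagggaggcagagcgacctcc
In Hspa5 the motif lay in the direction of the gene and ended 46 bases before the start. In Hsp90b1, Creld2 and Ero1lb it lay in the opposite direction, 88, 107 and 182 bases before the start.

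The unfolded protein response element core TGACGTGG was in the windows of 8 of the 47 ER-Golgi transport genes with one, 17.0%, against 0.714% of all genes and 1.12% of those tested. Its reverse complement shares the letters CCACG with the end of the longer element. Copb1, a coat subunit, is the smallest change of the 3 shown (log2 fold change 0.83 ± 0.20), and its call was lost without the second PB or the first Act B library. The stretches of Sec24d (chr3:123267430-123267495 on the plus strand), Kdelr3 (chr15:79516338-79516407 on the plus strand) and Copb1 (chr7:114254681-114254748 on the minus strand) end at the start or before it and show the motif in capitals, 18, 22 and 20 bases before the start.
Sec24d: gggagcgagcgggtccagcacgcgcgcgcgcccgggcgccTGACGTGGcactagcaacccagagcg
Kdelr3: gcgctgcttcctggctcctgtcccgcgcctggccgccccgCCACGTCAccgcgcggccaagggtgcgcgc
Copb1: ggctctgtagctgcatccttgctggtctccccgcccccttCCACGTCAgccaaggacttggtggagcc

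The Atf4 site TGATGNAA was in the windows of 13 of 29 genes on the list of Atf4 targets and amino acid supply, 44.8%. It was in 4.51% of all genes and 2.84% of those tested. Because the list includes known Atf4 targets, this share is not independent of how the list was made. Asns (chr6:7693210-7693272 on the minus strand) and Chac1 (chr2:119351009-119351096 on the plus strand) are shown as key genes of the list and textbook targets. Pycr1 (chr11:120643804-120643891 on the minus strand) and Slc7a11 (chr3:50443614-50443700 on the minus strand) were picked by the size of their fold change among genes with the motif before the start. Pycr1 and Chac1 rose over 8-fold, and Slc7a11 held 2 copies.
Asns: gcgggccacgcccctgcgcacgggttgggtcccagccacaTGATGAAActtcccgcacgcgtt
Chac1: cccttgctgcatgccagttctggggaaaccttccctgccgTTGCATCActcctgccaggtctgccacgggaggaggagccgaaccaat
Pycr1: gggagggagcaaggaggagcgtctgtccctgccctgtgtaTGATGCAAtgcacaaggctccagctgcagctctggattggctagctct
Slc7a11: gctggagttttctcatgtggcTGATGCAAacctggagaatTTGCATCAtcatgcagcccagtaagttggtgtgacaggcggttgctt

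The interferon-stimulated response element, GAAA and GAAA with 2 free bases between them, was in the windows of 17 of 32 interferon response genes, 53.1%, against 3.99% of all genes and 3.74% of those tested, and it can overlap the ETS-IRF site of GGAA and GAAA with 2 free bases between them. The 4 genes shown carried it and had fold changes of either sign between PB and Act B: Isg15 (chr4:156200835-156200924 on the minus strand), Gbp2 (chr3:142620564-142620653 on the plus strand), Gbp3 (chr3:142559965-142560043 on the plus strand) and Cxcl10 (chr5:92349053-92349139 on the minus strand). Copies overlap in Isg15 and in Gbp3.
Isg15: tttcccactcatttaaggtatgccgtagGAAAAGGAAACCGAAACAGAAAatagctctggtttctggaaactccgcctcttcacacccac
Gbp2: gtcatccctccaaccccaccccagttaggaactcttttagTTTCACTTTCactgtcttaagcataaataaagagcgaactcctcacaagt
Gbp3: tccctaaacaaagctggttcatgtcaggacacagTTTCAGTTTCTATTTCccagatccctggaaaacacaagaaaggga
Cxcl10: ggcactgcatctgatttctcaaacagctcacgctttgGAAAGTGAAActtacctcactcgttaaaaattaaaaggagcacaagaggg
Another 6 motifs were searched. CCACGTG was in 11.8% of Myc and ribosome biogenesis genes (4.41% of all genes and 6.79% of those tested), and TCACNCCAC in 7.41% of sterol and fatty acid genes (1.44% and 1.38%). CTGATTGG was in 21.1% of MHC class II and costimulation genes (4.70% and 6.83%), and CCTAGCAAC in 5.26% (0.944% and 1.016%). The ETS-IRF site was in 14.8% of B cell transcription factor genes (3.16% and 2.82%), and GTGAAAGT in 0% (0.969% and 0.855%). A match is a run of letters in a window and shows no binding, and the motifs and lists were paired with the genes' results already known.

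The machinery of secretion held a far larger share of the measured RNA in PB than in Act B. All ER chaperones that passed the filter, nearly all such genes of ER entry and ER-Golgi transport and most plasma cell factors were higher. RPKM is relative to the library, so the amount of RNA per cell was not measured. Lower in PB were 18 of 26 genes of antigen presentation, 19 of 34 of B cell identity and 21 of 36 of innate sensing. In these lists 3, 5 and 3 genes were higher. Of all genes tested 34.3% were lower and 21.6% higher. Homing genes were divided. Respiratory chain, Bcl2 family and Polycomb genes were mixed, and Myc did not pass the test.

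In all, 5709 genes (55.9%) passed the test between PB and Act B, 2209 higher in PB (21.6%) and 3500 lower (34.3%). The test was limma on log2(RPKM + 1), with a Benjamini-Hochberg adjusted p below 0.05 over the 10215 genes. Every log2 fold change below is PB minus Act B on that scale, with its standard error and 2 libraries in each group. Changes of at least 2-fold were found in 1083 genes that rose (10.6%) and 1244 that fell (12.2%), and changes of at least 4-fold in 339 (3.32%) and 300 (2.94%). At 16-fold or more, 39 genes rose and 20 fell. The median of all genes was -0.19, and it was -0.01 when the libraries were rescaled by the median of ratios, a shift of 0.18, so that small falls below are to be read against that median. With that scaling 2745 genes were higher (26.9%) and 2577 lower (25.2%). The test reported here ignores the library series. With library series as a block 2898 genes were higher (28.4%) and 4884 lower (47.8%). The values of PB and Act B did not overlap in 7898 genes (77.3%), so a lack of overlap by itself says little about a gene. Of the genes tested, 326 were under 1 RPKM in both Act B libraries and 320 in both PB libraries, and these passed the filter only through the group where they were high. In the 4 libraries 9744 to 9922 genes reached 1 RPKM, and replicates of a group differed by a median of 0.171 (PB) and 0.157 (Act B) on the log2 scale. The 26 gene lists described below have 847 places, of which 810 hold a gene in the files and 792 a gene that passed the filter. Each list's counts are over its genes that passed and are descriptions, to be read against the 21.6% and 34.3% of all genes. In sorted bulk samples, fewer cells of a type and less RNA per cell cannot be told apart.

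**Figure D1:**
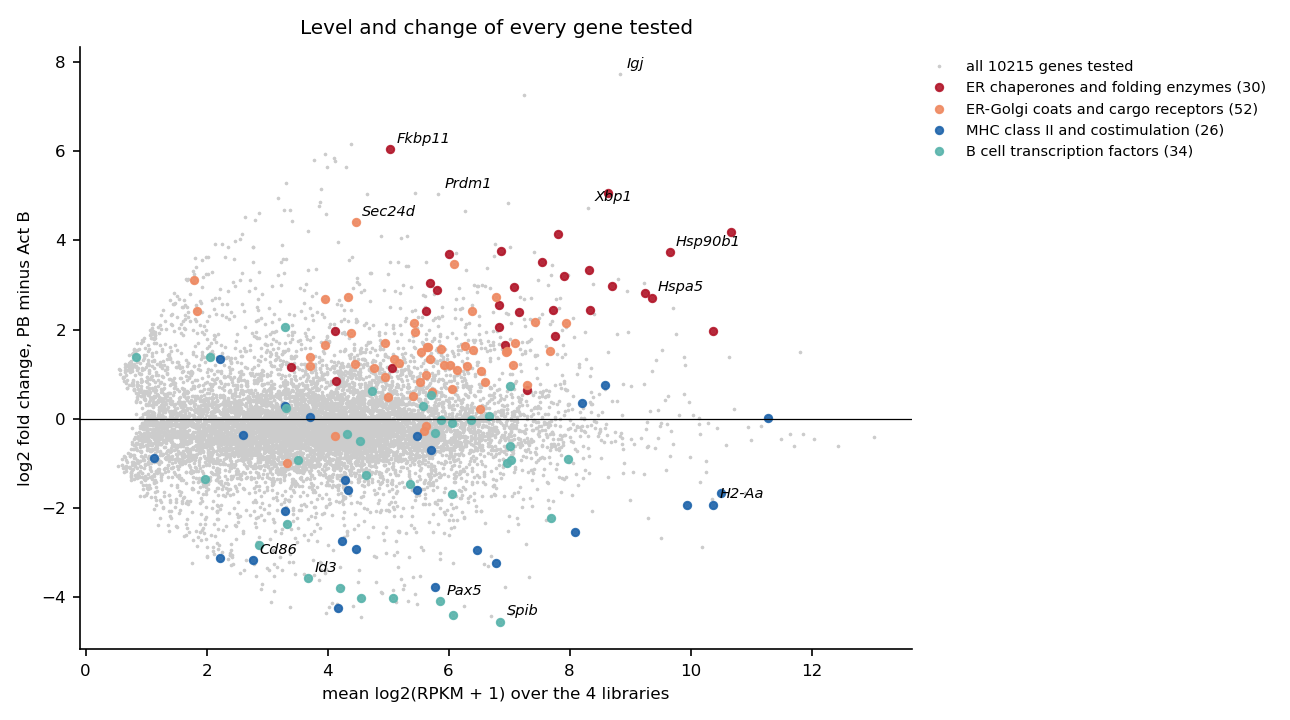
Each point is a gene tested, with its mean log2(RPKM + 1) over the 4 libraries on the x axis and the log2 fold change, PB minus Act B, on the y axis; colours mark 4 gene lists. All 30 ER chaperones and folding enzymes that passed the filter lie above 0, between 0.65 and 6.04, while most MHC class II and costimulation genes lie below it.

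The sort fixed the genes of its own gates. Prdm1 stood at 363 and 289 RPKM in PB, against 7.45 and 10.7 in Act B, a log2 fold change of 5.03 ± 0.21. Sdc1, which encodes CD138, was at 32.7 and 30.5 RPKM in PB, against 0.408 and 0.584 in Act B, a log2 fold change of 4.45 ± 0.15. Of the 7 plasmablast markers, all higher in PB, Prdm1 and Sdc1 are these gate genes and the others are Irf4, Xbp1, Igj, Tnfrsf17 and Bhlha15. Of the B cell markers, 6 of 7 were lower (among them Pax5, Cd22, Cd79a, Bach2 and Ciita), with Ms4a1 at 279 and 343 RPKM in PB, against 367 and 501 in Act B (log2 fold change -0.47 ± 0.19, adjusted p = 0.0731); with library series as a block its adjusted p was 0.000299. Markers of other cells were summed. Of 13 T cell markers 6 were in the files, and their summed level was 72.5 to 78.8 RPKM in PB and 165 to 216 RPKM in Act B. Cd2, which B cells also express, made up most of the sum and was lower in PB, as was Lck, a kinase of T cells, at 2.07 and 2.79 RPKM in PB, against 6.91 and 7.63 in Act B (log2 fold change -1.28 ± 0.18, adjusted p = 0.00116). Cd247, the other T cell marker that passed the filter, was not called (log2 fold change 0.24) but was higher in PB with library series as a block. The T cell genes Cd5, Cd8b1 and Lat were under 1 RPKM in every PB and Act B library. Of 15 myeloid markers 5 were in the files, 3 lower and 1 higher in PB, with sums of 34.6 to 35.8 RPKM in PB and 40.5 to 46.9 RPKM in Act B. Itgam, a myeloid integrin, was at 0.282 and 0.497 RPKM in PB, against 11 and 10.2 in Act B, and Tyrobp, an adaptor of myeloid and natural killer cells, at 0.48 and 1.33 RPKM in PB, against 17.6 and 11.7 in Act B. Cd68, a lysosomal protein of macrophages, ran the other way, at 31.3 and 27.7 RPKM in PB, against 14.2 and 13.9 in Act B (log2 fold change 1.01 ± 0.09, adjusted p = 0.000169), and made up most of the PB sum. The 6 natural killer and dendritic cell markers in the files summed to 284 to 326 RPKM in PB and 139 to 149.6 RPKM in Act B, most of it Bst2, which interferon also induces in B cells and which was higher in PB. The other 3 that passed the filter, Flt3, Batf3 and Prf1, were lower in PB, with log2 fold changes of -2.53, -1.58 and -0.85; Batf3 lost its call without the second PB library and Prf1 without the first Act B library. Haemoglobin Hbb-b1 was at 0.124 and 0.0926 RPKM in PB, against 13.3 and 6.55 in Act B, and the 3 erythroid and megakaryocyte markers in the files summed to 2.15 to 2.36 RPKM in PB and 13.1 to 18.6 RPKM in Act B. The 4 stromal and endothelial markers in the files, led by Epcam and Pecam1, summed to 37.2 to 41 RPKM in PB and 34.4 to 40 RPKM in Act B. These sums hide opposite changes. Epcam, which passed the filter only through PB, was higher there (log2 fold change 4.53 ± 0.26). Pecam1 was at 9.39 and 8.33 RPKM in PB, against 39 and 33 in Act B (log2 fold change -1.9 ± 0.11, adjusted p = 2.88e-05). The part of such cells in the results was not tested.

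The 12 genes with the largest rise in PB were Igj, Slpi, Pik3cg, Fkbp11, C630004h02rik, 1190002h23rik, Selm, Bhlha15, Il10, Tigit, Cacna1h and Ctla4. They were chosen among called genes without overlap between groups and with the same sign in both series, so neither trait is a result. Fkbp11, a prolyl isomerase of the ER, was at 337 and 209 RPKM in PB, against 2.6 and 3.58 in Act B (log2 fold change 6.04 ± 0.29, adjusted p = 1.56e-05). Selm, a selenoprotein of the ER, was at 104 and 98.2 RPKM in PB, against 0.495 and 1.22 in Act B (log2 fold change 5.81 ± 0.23, adjusted p = 9.36e-06). Il10, a cytokine that restrains immune responses, was at 128 and 97 RPKM in PB, against 0.518 and 2.32 in Act B (log2 fold change 5.65 ± 0.36, adjusted p = 3.79e-05). All 3 were at a few RPKM or less in Act B and far higher in both PB libraries. Cacna1h, which encodes a T-type calcium channel, was at 58 and 64.8 RPKM in PB, against 0.194 and 1.12 in Act B (log2 fold change 5.29 ± 0.28, adjusted p = 2.15e-05). Ctla4, an inhibitory receptor best known from T cells, was at 99 and 76.9 RPKM in PB, against 1.26 and 1.74 in Act B (log2 fold change 5.15 ± 0.15, adjusted p = 7.50e-06). Bhlha15, a transcription factor of secretory cells, was at 128 and 129 RPKM in PB, against 0.699 and 2.23 in Act B (log2 fold change 5.78 ± 0.28, adjusted p = 1.64e-05). Igj, which joins antibody units, varied more than any of these, with 4576 and 9566 RPKM in PB, against 7.33 and 118 in Act B (log2 fold change 7.72 ± 1.34, adjusted p = 0.00285).

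**Figure D2:**
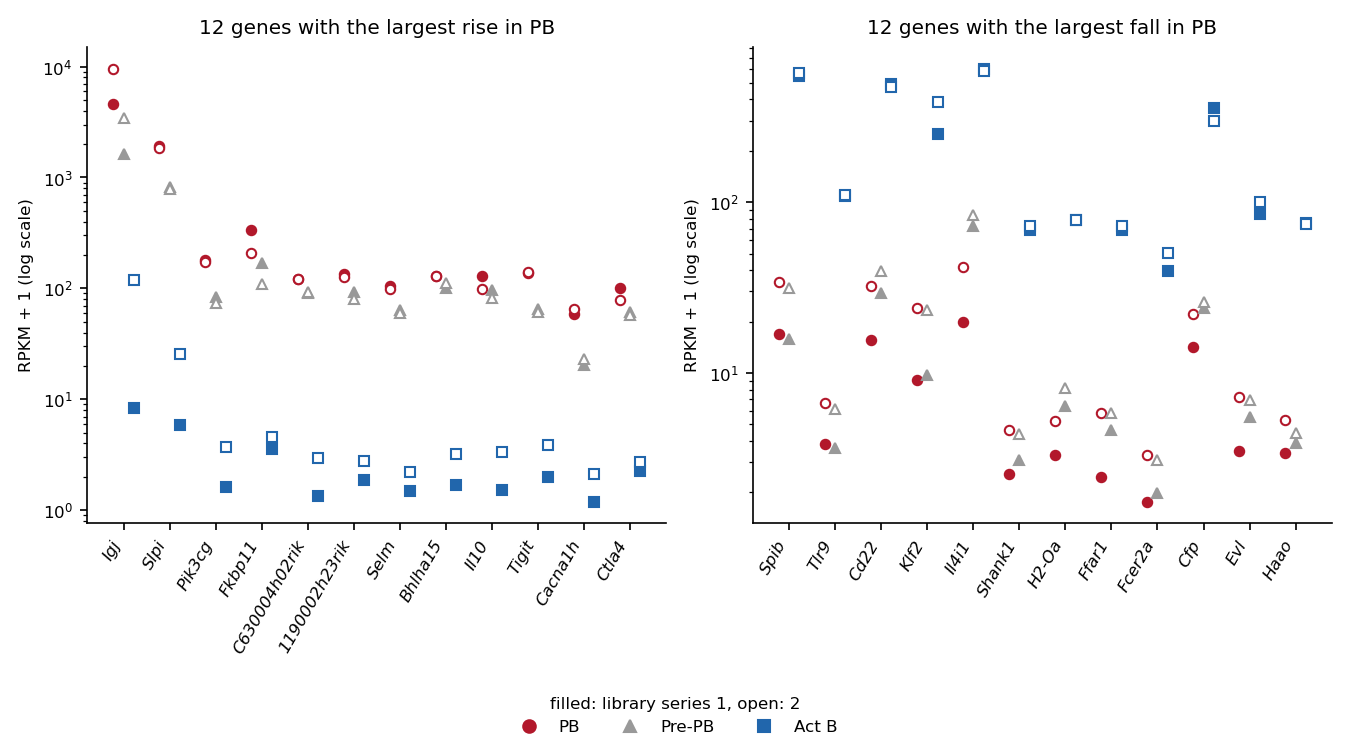
Values of the 12 genes with the largest rise (left) and the 12 with the largest fall in PB (right), as RPKM + 1 on a log scale; each symbol is a library of PB (circles), Pre-PB (triangles) or Act B (squares), filled for library series 1 and open for series 2. The 24 genes were chosen so that PB and Act B do not overlap. In the right panel the open PB symbol lies above the filled PB symbol for every gene.

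The 12 genes with the largest fall in PB were Spib, Tlr9, Cd22, Klf2, Il4i1, Shank1, H2-Oa, Ffar1, Fcer2a, Cfp, Evl and Haao, chosen in the same way. Il4i1, an enzyme that oxidises phenylalanine, was at 18.8 and 40.8 RPKM in PB, against 603 and 584 in Act B (log2 fold change -4.37 ± 0.31, adjusted p = 6.18e-05). Fcer2a, the receptor CD23 for IgE, was at 0.764 and 2.31 RPKM in PB, against 38.3 and 49.4 in Act B (log2 fold change -4.2 ± 0.40, adjusted p = 0.000197). The genotype Cd23(Cre/+) bears its name, and the labels do not say where Cre lies. Cfp, the complement factor properdin, was at 13.2 and 21.1 RPKM in PB, against 354 and 298 in Act B (log2 fold change -4.2 ± 0.21, adjusted p = 1.71e-05). All 3 were far lower in both PB libraries, and the second PB library was above the first in each. Ffar1, a receptor for fatty acids, was at 1.47 and 4.8 RPKM in PB, against 67.5 and 71.9 in Act B (log2 fold change -4.22 ± 0.36, adjusted p = 0.000131). Evl, a regulator of actin, was at 2.48 and 6.24 RPKM in PB, against 83.9 and 98.7 in Act B (log2 fold change -4.2 ± 0.33, adjusted p = 8.32e-05).

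Further, 8 genes were under 1 RPKM in both Act B libraries and at 20 RPKM or more in both PB libraries: Sdc1, Atoh8, B3gnt9, Cpeb3, Epcam, Gpx3, Rhobtb1 and Tmem52. No gene showed the reverse. Gpx3, a secreted glutathione peroxidase, was at 52.6 and 46.4 RPKM in PB, against 0.444 and 0.878 in Act B. Cpeb3, which binds messenger RNA and controls its translation, was at 35.8 and 34.5 RPKM in PB, against 0.239 and 0.755 in Act B. Epcam, an adhesion molecule of epithelia, was at 26.3 and 31.6 RPKM in PB, against 0.0787 and 0.547 in Act B. These genes were chosen by these levels, so their difference is a description.

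Plasma cell transcription and RNA factors rose in 14 of 18 members that passed the filter, and none fell; their median log2 fold change was 1.77, against -0.19 for all genes. Xbp1, which switches on ER and secretion genes, was at 1511 and 1757 RPKM in PB, against 44 and 82.5 in Act B (log2 fold change 4.73 ± 0.31, adjusted p = 4.43e-05). Irf4, required for plasma cells, was at 412 and 351 RPKM in PB, against 26.4 and 33.2 in Act B (log2 fold change 3.64 ± 0.14, adjusted p = 8.87e-06). Creb3l2, a membrane-bound factor cut loose by ER stress, was at 50.7 and 58.2 RPKM in PB, against 1.66 and 2.35 in Act B (log2 fold change 4.21 ± 0.17, adjusted p = 9.13e-06). Xbp1 was the highest of them in both PB libraries, and no PB library overlapped Act B, as for 77.3% of all genes. Fam46c, a poly(A) polymerase that stabilises messenger RNA in plasma cells, was at 657 and 585 RPKM in PB, against 43.5 and 47.3 in Act B (log2 fold change 3.74 ± 0.11, adjusted p = 7.50e-06). Ell2, an elongation factor that favours the secreted form of antibody, was at 232 and 268 RPKM in PB, against 20.8 and 26.9 in Act B (log2 fold change 3.35 ± 0.19, adjusted p = 2.74e-05).

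Surface molecules of plasma cells split. Of 27 members that passed the filter 18 rose and 5 fell, with a median of 2.12. Tnfrsf17, the receptor BCMA for a survival factor, was at 10.4 and 10.6 RPKM in PB, against 0.0333 and 0.146 in Act B (log2 fold change 3.4 ± 0.15, adjusted p = 1.13e-05). Cd28, a costimulatory receptor that also sustains plasma cells, was at 18.5 and 16.7 RPKM in PB, against 0.961 and 0.904 in Act B (log2 fold change 3.27 ± 0.12, adjusted p = 8.42e-06). Cxcr4, which guides plasma cells to bone marrow, was at 242 and 153 RPKM in PB, against 32.7 and 25 in Act B (log2 fold change 2.71 ± 0.31, adjusted p = 0.000438). None overlapped Act B, as for 77.3% of all genes, but Tnfrsf17 stayed far below Cxcr4 in PB. Tnfrsf17 and Cd28 were under 1 RPKM in both Act B libraries and passed the filter only through PB. Lag3, an inhibitory receptor, was at 102 and 143 RPKM in PB, against 4.93 and 7.61 in Act B (log2 fold change 4.09 ± 0.29, adjusted p = 5.55e-05). The secreted products and extracellular factors rose in 10 of 20 members and fell in 4, with a median of 0.65 (12 and 3 after median-of-ratios scaling). Vegfa, a growth factor for blood vessels, was at 113 and 88.7 RPKM in PB, against 3.07 and 4.49 in Act B (log2 fold change 4.42 ± 0.23, adjusted p = 1.96e-05).

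Folding genes of the ER rose together. All 30 chaperones and folding enzymes that passed the filter, of 32 listed, were higher in PB, 28 of them by at least 2-fold, with a median of 2.77 and a range of 0.65 to 6.04. Together the list held 6.57% and 5.82% of the summed RPKM of the PB libraries, against 0.7% and 0.741% in Act B. Hspa5 (BiP), the main chaperone of the ER, was at 1454 and 1940.5 RPKM in PB, against 204 and 318 in Act B (log2 fold change 2.71 ± 0.31, adjusted p = 0.000439). Hsp90b1 (Grp94), which folds Toll-like receptors and integrins, was at 2833 and 3078 RPKM in PB, against 183 and 263 in Act B (log2 fold change 3.74 ± 0.21, adjusted p = 2.52e-05). Of the genes tested, it was among the 10 with the highest RPKM in PB. Txndc5, a disulfide isomerase, was at 2362 and 2211 RPKM in PB, against 52 and 88.7 in Act B (log2 fold change 5.05 ± 0.26, adjusted p = 1.80e-05). All 3 were several-fold higher in both PB libraries than in either Act B library. Mzb1, a cochaperone of antibody assembly listed in the files under an older name, was at 8499.5 and 5694 RPKM in PB, against 405 and 358 in Act B (log2 fold change 4.19 ± 0.27, adjusted p = 3.88e-05). Creld2, an ER protein induced by stress, was at 932 and 939.5 RPKM in PB, against 43.7 and 62.4 in Act B (log2 fold change 4.14 ± 0.18, adjusted p = 1.09e-05). Pdia4, another disulfide isomerase, was at 1928 and 1346 RPKM in PB, against 258 and 197 in Act B (log2 fold change 2.83 ± 0.26, adjusted p = 0.000171).

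Entry into the ER, the first step of the route, rose in 22 of 24 genes, and none fell (median 2.08). Sec61a1, the pore of the translocon, was at 605 and 571 RPKM in PB, against 85.4 and 91.7 in Act B (log2 fold change 2.72 ± 0.09, adjusted p = 7.61e-06). Ssr4, part of the translocon-associated complex, was at 1412 and 1213 RPKM in PB, against 156 and 142 in Act B (log2 fold change 3.12 ± 0.13, adjusted p = 1.01e-05). Spcs1, a subunit of signal peptidase, was at 81.9 and 241 RPKM in PB, against 14 and 40.9 in Act B (log2 fold change 2.5 ± 0.90, adjusted p = 0.0519). Its libraries split by series, both groups being higher in series 2. With library series as a block, its adjusted p was 1.83e-07. N-glycosylation genes rose in 31 of 42 members and fell in 2 (median 1.34). Ddost, a subunit of the oligosaccharyltransferase, was at 805 and 729 RPKM in PB, against 79.8 and 82.6 in Act B (log2 fold change 3.22 ± 0.09, adjusted p = 7.50e-06). Stt3a, the catalytic subunit that acts during translocation, was at 196 and 305 RPKM in PB, against 36.1 and 57.9 in Act B (log2 fold change 2.39 ± 0.39, adjusted p = 0.00206). Stt3a split by series too, but its log2 difference was alike in both, at 2.4 in series 1 and 2.38 in series 2.

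Removal of misfolded protein followed the same direction in 21 of 24 genes, with 1 lower and a median of 1.37. Derl3, a channel component, was at 684 and 665 RPKM in PB, against 19.4 and 26.2 in Act B (log2 fold change 4.84 ± 0.14, adjusted p = 7.50e-06). Edem2, a mannosidase that marks misfolded glycoproteins, was at 449 and 398 RPKM in PB, against 26.4 and 27.9 in Act B (log2 fold change 3.91 ± 0.11, adjusted p = 7.50e-06). Sel1l, the adaptor of the ubiquitin ligase Syvn1, was at 267 and 274 RPKM in PB, against 30.9 and 36.8 in Act B (log2 fold change 2.97 ± 0.11, adjusted p = 8.44e-06), whereas Syvn1 itself had a log2 fold change of 1.4 ± 0.08 (adjusted p = 2.71e-05). Vesicle transport between ER and Golgi rose in 46 of 52 genes and fell in 2 (median 1.36). Sec24d, a cargo-binding coat protein, was at 103 and 99 RPKM in PB, against 3.3 and 4.38 in Act B (log2 fold change 4.41 ± 0.12, adjusted p = 7.50e-06). Its partner Sec23b was at 86.9 and 85.4 RPKM in PB, against 28.4 and 26.6 in Act B (log2 fold change 1.61 ± 0.08, adjusted p = 1.93e-05). Lman1, a cargo receptor for glycoproteins, was at 233 and 216 RPKM in PB, against 18.2 and 20.9 in Act B (log2 fold change 3.46 ± 0.10, adjusted p = 7.50e-06). Sec24d was far lower than Sec23b in Act B and near its level in PB. Kdelr3, a receptor that returns ER residents, was at 9.33 and 8.97 RPKM in PB, against 0.0383 and 0.336 in Act B (log2 fold change 3.11 ± 0.15, adjusted p = 1.64e-05). It passed the filter only through PB.

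**Figure D3:**
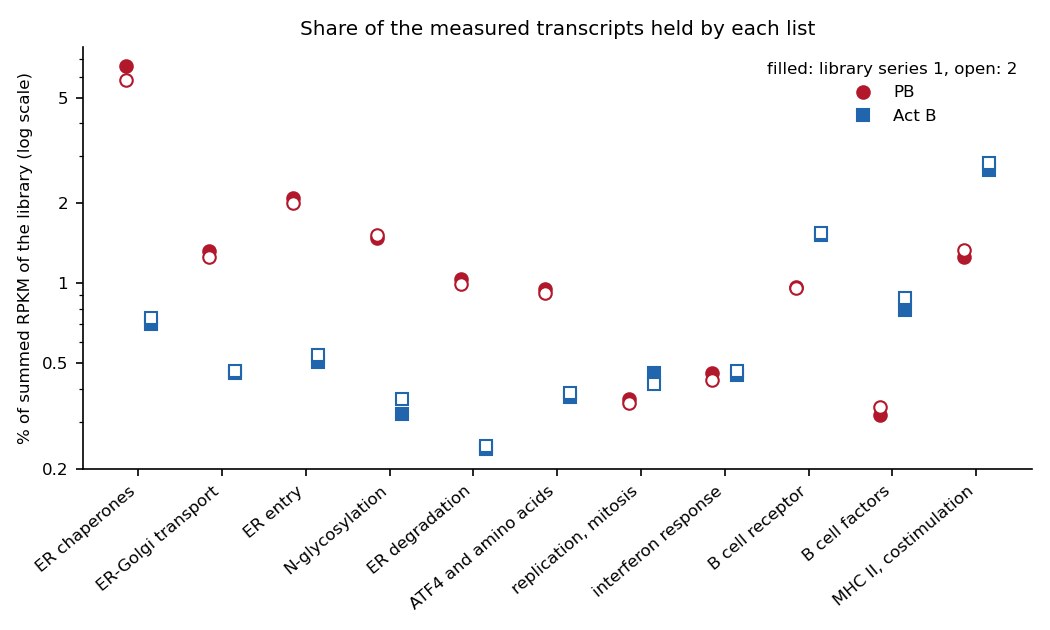
Share of the summed RPKM of a library, in percent on a log scale, held by all members of 11 gene lists that are in the files; circles are PB and squares Act B libraries, filled for series 1 and open for series 2. ER chaperones held 6.57% and 5.82% in PB, against 0.7% and 0.741% in Act B, while MHC class II and costimulation genes held 1.25% and 1.33% in PB, against 2.66% and 2.84% in Act B.

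The sensors and factors of the unfolded protein response rose in 14 of 16 genes and fell in 1 (median 1.28), with unequal sizes among the 3 sensors. Ern1 was at 33.2 and 36.3 RPKM in PB, against 2.86 and 3.95 in Act B (log2 fold change 3.03 ± 0.15, adjusted p = 1.71e-05). Atf6 was at 132 and 121 RPKM in PB, against 48.8 and 47.9 in Act B (log2 fold change 1.37 ± 0.10, adjusted p = 6.83e-05). Eif2ak3 was at 41.8 and 45.7 RPKM in PB, against 17 and 19.4 in Act B (log2 fold change 1.22 ± 0.11, adjusted p = 0.000168). Ern1 had the largest log2 fold change of the 3 sensors and the lowest level in Act B; the difference between sensors was not tested. The list of Atf4 targets, amino acid supply and tRNA charging rose in 28 of 33 members that passed the filter, and none fell (median 0.99). Chac1, which degrades glutathione, was at 199 and 135 RPKM in PB, against 8.25 and 9.1 in Act B (log2 fold change 4.09 ± 0.25, adjusted p = 3.38e-05). Asns, which makes asparagine, was at 91.7 and 117.4 RPKM in PB, against 24.5 and 37.4 in Act B (log2 fold change 1.74 ± 0.27, adjusted p = 0.0018). Slc3a2, the heavy chain of amino acid transporters, was at 594 and 544 RPKM in PB, against 69.2 and 70.9 in Act B (log2 fold change 3 ± 0.08, adjusted p = 7.50e-06). Pycr1, which makes proline, was at 42.1 and 36.7 RPKM in PB, against 3.13 and 2.91 in Act B (log2 fold change 3.33 ± 0.12, adjusted p = 8.42e-06).

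Metabolic lists were mixed or lower in PB. Respiratory chain genes rose in 6 of 51 and fell in 9, with a median of -0.03; with library series as a block the counts were 16 and 20 (28.4% and 47.8% of all genes), and with median-of-ratios scaling 11 and 5 with a median of 0.16. Ndufa1, a small subunit of complex I, rose most, at 469.5 and 729 RPKM in PB, against 110.3 and 133 in Act B (log2 fold change 2.26 ± 0.27, adjusted p = 0.000511). Uqcrq of complex III was at 1178 and 1357 RPKM in PB, against 411 and 459 in Act B (log2 fold change 1.54 ± 0.12, adjusted p = 7.96e-05). The key genes Cox5a (log2 fold change -0.34 ± 0.23, adjusted p = 0.241) and Ndufs1 (-0.03 ± 0.15, adjusted p = 0.894) did not pass, though Cox5a passed with the block (adjusted p = 0.0155). Glycolysis and hypoxia genes rose in 5 of 28 and fell in 12 (9 and 13 with the block, 7 and 7 after median-of-ratios scaling). Ldha, which makes lactate, was at 146 and 118.6 RPKM in PB, against 254 and 204 in Act B (log2 fold change -0.79 ± 0.20, adjusted p = 0.0156); without the second PB library, without the first Act B library and after median-of-ratios scaling (-0.59) it did not pass. The glucose carrier Slc2a1 was at 18.1 and 18.2 RPKM in PB, against 17.2 and 18.8 in Act B. Sterol and fatty acid genes fell in 26 of 36 and rose in 2 (median -0.61), and in 19 of 36 after median-of-ratios scaling. Mvd, an enzyme of the mevalonate pathway, was at 42.2 and 40.4 RPKM in PB, against 165 and 139.9 in Act B (log2 fold change -1.85 ± 0.13, adjusted p = 4.74e-05). Mvk of the same pathway was at 14.9 and 13.7 RPKM in PB, against 55.1 and 51.3 in Act B (log2 fold change -1.82 ± 0.16, adjusted p = 0.000135).

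Transcription factors of B cell identity fell in 19 of 34 members and rose in 5 (median -0.90; 22 and 8 with the block). Pax5, which keeps B cells committed, was at 8.25 and 20.5 RPKM in PB, against 193 and 294 in Act B (log2 fold change -4.08 ± 0.48, adjusted p = 0.000504). Spib, an ETS factor of B cells, was at 15.8 and 33.2 RPKM in PB, against 546 and 569 in Act B (log2 fold change -4.54 ± 0.40, adjusted p = 0.000142). Klf2, a factor of quiescence and homing, was at 8.11 and 22.9 RPKM in PB, against 249 and 382 in Act B (log2 fold change -4.39 ± 0.59, adjusted p = 0.000923). In each of the 3 the second PB library was above the first, yet far below both Act B libraries. Bcl11a, a factor of early B cells, was at 3.86 and 6.02 RPKM in PB, against 103 and 84.3 in Act B (log2 fold change -4.01 ± 0.19, adjusted p = 1.44e-05). Bach2, which opposes Prdm1, was at 2.96 and 4.01 RPKM in PB, against 22.1 and 21.7 in Act B (log2 fold change -2.36 ± 0.16, adjusted p = 4.41e-05). Ebf1 kept more of its RNA, at 13.7 and 16.7 RPKM in PB, against 33.9 and 41.6 in Act B (log2 fold change -1.26 ± 0.14, adjusted p = 0.000428).

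The B cell receptor and its signalling fell in 24 of 36 members and rose in 7 (median -0.75; 18 lower after median-of-ratios scaling). The signalling chains had small changes. Cd79b was at 647 and 569.9 RPKM in PB, against 1164 and 1009.9 in Act B (log2 fold change -0.83 ± 0.14, adjusted p = 0.00216). Cd79a was at 448 and 545 RPKM in PB, against 702 and 847 in Act B (log2 fold change -0.64 ± 0.18, adjusted p = 0.024), and it did not pass without the first PB library, without the second Act B library or after median-of-ratios scaling (-0.44). Cd72, an inhibitory coreceptor, was at 5.33 and 16.5 RPKM in PB, against 128 and 149.8 in Act B (log2 fold change -3.73 ± 0.53, adjusted p = 0.00114). Pik3cg, the gamma catalytic subunit of phosphoinositide 3-kinase, was the list's largest rise, at 178 and 172 RPKM in PB, against 0.636 and 2.73 in Act B (log2 fold change 6.15 ± 0.36, adjusted p = 2.83e-05).

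Antigen presentation and costimulation fell in 18 of 26 genes and rose in 3, and its median of -1.63 was the lowest of the 26 lists plotted. H2-Aa, a class II chain, was at 613 and 761 RPKM in PB, against 2529 and 2659 in Act B (log2 fold change -1.92 ± 0.14, adjusted p = 6.95e-05). H2-DMa, which helps load peptide onto class II, was at 30.2 and 40.9 RPKM in PB, against 318 and 354 in Act B (log2 fold change -3.22 ± 0.15, adjusted p = 1.61e-05). Its partner H2-DMb2 was at 9.24 and 20.5 RPKM in PB, against 210.4 and 189 in Act B (log2 fold change -3.76 ± 0.33, adjusted p = 0.000139). H2-Aa kept far more RNA in PB than the loading genes did. H2-Oa, which restrains loading, was at 2.3 and 4.22 RPKM in PB, against 77.6 and 77.3 in Act B (log2 fold change -4.24 ± 0.23, adjusted p = 2.40e-05). Cd86, a costimulatory ligand, was at 0.446 and 2.55 RPKM in PB, against 16.1 and 23.1 in Act B (log2 fold change -3.17 ± 0.46, adjusted p = 0.00132). Cd74, the invariant chain, had the highest mean RPKM of the genes tested in both groups. It was at 7507 and 7059.9 RPKM in PB, against 10231 and 9034 in Act B (log2 fold change -0.40 ± 0.14, adjusted p = 0.0486). Its PB mean of 7283 was close to those of Mzb1 (7097) and Igj (7071). Mzb1 was above it in the first PB library and Igj in the second. No antibody heavy or light chain gene was among the highest genes of PB, and whether their RNA was counted was not tested. Cd74 was called under 5 of 17 alternatives, the call being lost without any 1 of the 8 libraries. Of the 5 myeloid markers given above, 3 were lower in PB as well and Cd68 was higher, and their part in this list's falls was not tested.

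Homing and adhesion genes rose in 9 of 26 and fell in 13 (median -0.97). Cxcr5, which draws B cells to follicles, was at 11.2 and 14 RPKM in PB, against 88.7 and 89 in Act B (log2 fold change -2.73 ± 0.12, adjusted p = 1.31e-05). Ccr7, which draws them to T cell zones, was at 9.24 and 14.2 RPKM in PB, against 145 and 142 in Act B (log2 fold change -3.54 ± 0.20, adjusted p = 2.43e-05). S1pr1, which guides exit from lymphoid tissue, was at 13.1 and 14.5 RPKM in PB, against 50.3 and 57.5 in Act B (log2 fold change -1.89 ± 0.12, adjusted p = 4.19e-05). Cxcr5, Ccr7 and S1pr1 were lower in both PB libraries than in either Act B library, while Cxcr4 rose as given above. The groups did not overlap in 77.3% of all genes.

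Innate sensing and NF-kB genes fell in 21 of 36 and rose in 3 (median -0.62; 27 and 6 with the block, 18 and 4 with a median of -0.43 after median-of-ratios scaling). Tlr9, a DNA sensor, was at 2.83 and 5.67 RPKM in PB, against 107 and 109.5 in Act B (log2 fold change -4.43 ± 0.31, adjusted p = 5.81e-05). Tlr4, the receptor for the LPS in these cultures, was low in both, at 3.07 and 2.34 RPKM in PB, against 3.41 and 2.7 in Act B (log2 fold change -0.13 ± 0.14, adjusted p = 0.458). Ly86, which with Cd180 forms a second LPS-binding complex, was at 33 and 37 RPKM in PB, against 324 and 283 in Act B (log2 fold change -3.08 ± 0.12, adjusted p = 8.46e-06). Tirap, an adaptor of Tlr4, ran the other way, at 23.5 and 23.2 RPKM in PB, against 3.86 and 3.87 in Act B (log2 fold change 2.32 ± 0.17, adjusted p = 6.34e-05).

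Interferon response genes fell in 26 of 40 and rose in 10 (median -0.84; 23 and 11 after median-of-ratios scaling), so that the list split. Gbp2, a guanylate-binding protein, was at 4.86 and 15.3 RPKM in PB, against 136 and 200.1 in Act B (log2 fold change -4.09 ± 0.53, adjusted p = 0.000764). Oas2, a sensor of double-stranded RNA, was at 0.212 and 0.922 RPKM in PB, against 10.8 and 12.3 in Act B (log2 fold change -3.04 ± 0.21, adjusted p = 5.45e-05). Both were far lower in PB, and Oas2 passed the filter only through Act B. Irf7, the factor that amplifies interferon genes, was at 161 and 139 RPKM in PB, against 28.4 and 33 in Act B (log2 fold change 2.25 ± 0.12, adjusted p = 2.43e-05). Isg20, an exonuclease, was at 324 and 315 RPKM in PB, against 25.2 and 34.8 in Act B (log2 fold change 3.39 ± 0.17, adjusted p = 1.93e-05). These 2 were higher in both PB libraries. Isg15, whose promoter holds 3 copies of the element shown above, was at 106 and 60.6 RPKM in PB, against 64.8 and 41.5 in Act B (log2 fold change 0.62 ± 0.44, adjusted p = 0.273); with library series as a block its adjusted p was 7.13e-05. Cxcl10, with 1 copy, was at 14.7 and 8.24 RPKM in PB, against 1.3 and 1.31 in Act B (log2 fold change 2.39 ± 0.41, adjusted p = 0.00276). Gbp3, with 2, was at 14.2 and 16.3 RPKM in PB, against 93.6 and 96.6 in Act B (log2 fold change -2.56 ± 0.12, adjusted p = 1.32e-05).

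**Figure D4:**
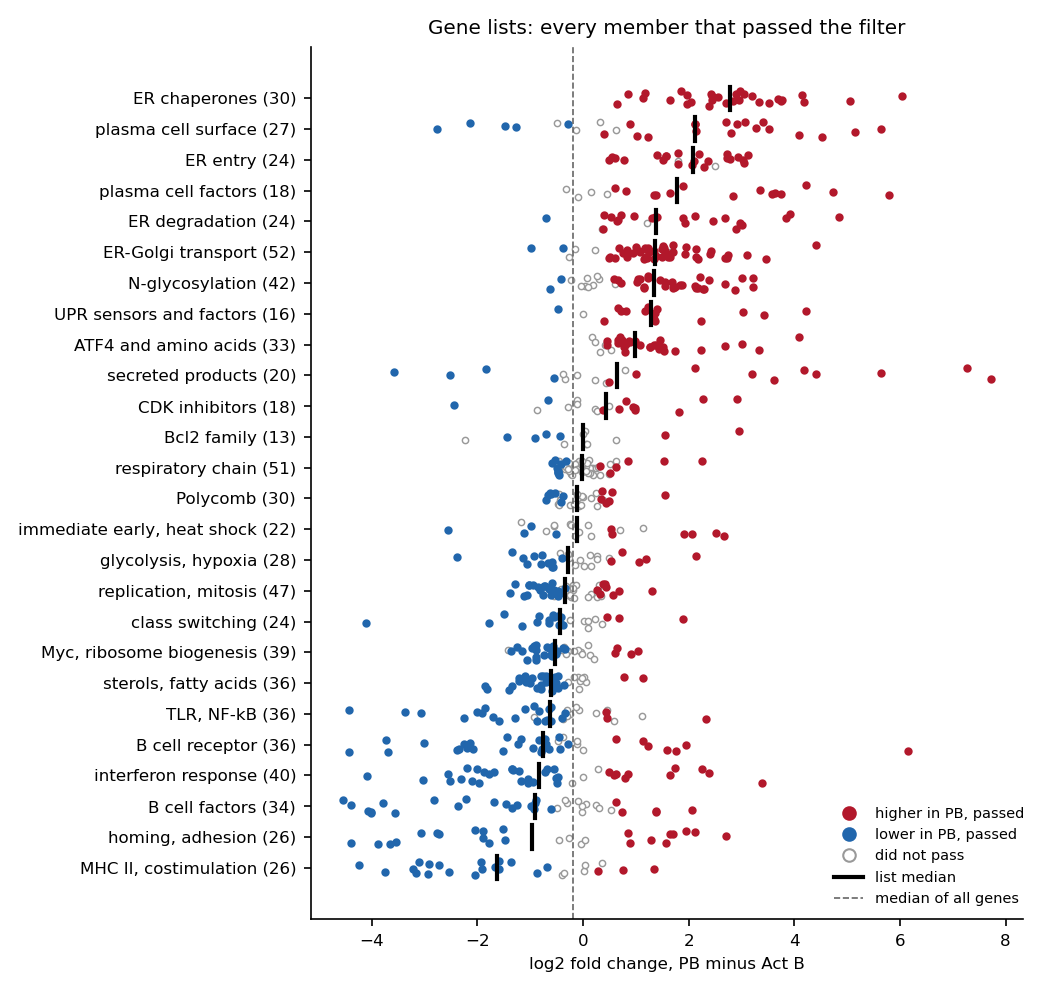
Log2 fold change, PB minus Act B, of every member that passed the filter in 26 gene lists (number in brackets), ordered by the list's median (black bar); filled red and blue points passed the test, open points did not, and the dashed line is the median of all genes. ER chaperones have the highest median (2.77) and MHC class II and costimulation the lowest (-1.63).

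DNA replication and mitosis genes fell in 21 of 47 and rose in 8 (median -0.34; 15 and 11 after median-of-ratios scaling). Mcm3, a subunit of the replicative helicase, was at 53.3 and 47.5 RPKM in PB, against 126 and 96.3 in Act B (log2 fold change -1.12 ± 0.17, adjusted p = 0.00178). Mcm2 of the same helicase was at 55.5 and 53 RPKM in PB, against 62.9 and 61.5 in Act B (log2 fold change -0.19 ± 0.08, adjusted p = 0.0678), and its adjusted p was 0.00744 with the block. The cyclins of early cell cycle ran in opposite directions. Ccnd3 was at 19 and 18.1 RPKM in PB, against 51.2 and 49 in Act B (log2 fold change -1.39 ± 0.10, adjusted p = 5.31e-05). Ccnd2 was at 157 and 167 RPKM in PB, against 60 and 69.9 in Act B (log2 fold change 1.31 ± 0.14, adjusted p = 0.000296). The mitotic cyclin Ccnb1 was at 5.05 and 6.27 RPKM in PB, against 5.3 and 8.04 in Act B (log2 fold change -0.19 ± 0.32, adjusted p = 0.652). Inhibitors of cyclin-dependent kinases and growth arrest genes rose in 9 of 18 and fell in 2 (11 and 4 with the block, 12 and 2 after median-of-ratios scaling; median 0.43). Cdkn2b, a kinase inhibitor, was at 28.2 and 34.6 RPKM in PB, against 2.55 and 4.1 in Act B (log2 fold change 2.92 ± 0.23, adjusted p = 8.58e-05). Cdkn2a, its neighbour in the genome, was at 102 and 103 RPKM in PB, against 18.8 and 22.1 in Act B (log2 fold change 2.27 ± 0.10, adjusted p = 1.21e-05). Cdkn1a, a broad kinase inhibitor, was at 63 and 68.5 RPKM in PB, against 33.7 and 33.6 in Act B (log2 fold change 0.94 ± 0.13, adjusted p = 0.00112). All 3 were higher in both PB libraries. Cdkn2c, an inhibitor known from plasma cells, was at 26.9 and 18.9 RPKM in PB, against 14.7 and 10.5 in Act B (log2 fold change 0.81 ± 0.28, adjusted p = 0.0476) and was called under 12 of 17 alternatives, not without the first PB library, either Act B library or either Blimp1(GFP/fl) library.

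Myc, which drives growth, was at 77.7 and 69.4 RPKM in PB, against 68 and 90 in Act B (log2 fold change -0.09 ± 0.14, adjusted p = 0.62), and its series disagreed in sign, with 0.19 in series 1 and -0.37 in series 2. The genes of ribosome biogenesis listed with it fell in 23 of 39 and rose in 4 (median -0.53; 15 lower after median-of-ratios scaling). Gar1, part of a small nucleolar RNA complex, was at 23.7 and 36.3 RPKM in PB, against 64.6 and 92.9 in Act B (log2 fold change -1.37 ± 0.29, adjusted p = 0.00639). Class switching and repair genes fell in 15 of 24 and rose in 3 (median -0.44; 16 and 5 with the block, 8 and 4 after median-of-ratios scaling). Batf, a factor that supports switching, was at 69.7 and 91.4 RPKM in PB, against 274 and 284 in Act B (log2 fold change -1.79 ± 0.15, adjusted p = 0.000118). Its RNA was thus lower in both PB libraries than in either Act B library, and 77.3% of all genes had no overlap between groups.

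Of 13 Bcl2 family genes 2 rose and 4 fell (3 and 6 with the block, 2 and 3 after median-of-ratios scaling). Bcl2l1 (Bcl-xL) was at 117.3 and 111 RPKM in PB, against 12.7 and 15.3 in Act B (log2 fold change 2.94 ± 0.12, adjusted p = 1.08e-05). Bcl2 was at 6.4 and 7.81 RPKM in PB, against 18.7 and 23.4 in Act B (log2 fold change -1.44 ± 0.16, adjusted p = 0.000412). These inhibitors of cell death thus moved in opposite directions. Mcl1, on which plasma cells depend, was at 201 and 307 RPKM in PB, against 128 and 204 in Act B (log2 fold change 0.62 ± 0.39, adjusted p = 0.217); with the block its adjusted p was 2.15e-05. Polycomb genes rose in 6 of 30 and fell in 7 (9 and 11 with the block, 8 and 4 after median-of-ratios scaling). Ezh2, the histone methyltransferase of the complex, was at 47.7 and 69.4 RPKM in PB, against 55.2 and 71 in Act B (log2 fold change -0.12 ± 0.23, adjusted p = 0.691). Stress-responsive immediate early and heat shock genes rose in 6 of 22 and fell in 4 (8 and 9 with the block, 6 and 2 after median-of-ratios scaling). Jun, a part of the factor AP1, was at 148 and 147 RPKM in PB, against 38.7 and 38.6 in Act B (log2 fold change 1.91 ± 0.10, adjusted p = 2.02e-05). Dusp1, a phosphatase of stress kinases, was at 44.3 and 45.9 RPKM in PB, against 6.97 and 5.56 in Act B (log2 fold change 2.67 ± 0.14, adjusted p = 1.88e-05). Egr3, a factor induced through the B cell receptor, was at 28.9 and 20.2 RPKM in PB, against 165 and 131 in Act B (log2 fold change -2.56 ± 0.22, adjusted p = 0.000142). Jun and Dusp1 were thus higher and Egr3 lower in both PB libraries. Egr2, of the same family as Egr3, ran the other way. It was at 35.6 and 29.4 RPKM in PB, against 10.8 and 4.36 in Act B (log2 fold change 2.07 ± 0.34, adjusted p = 0.00223). Fos, the partner of Jun, was at 24.3 and 12.4 RPKM in PB, against 17.9 and 2.73 in Act B (log2 fold change 1.13 ± 0.83, adjusted p = 0.287), and with the block its adjusted p was 0.00766. The part of this list's changes in the other results was not tested.

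The library series differed in how far PB and Act B stood apart. Among the 300 genes at least 4-fold lower in PB, the PB library of series 2 was above that of series 1 in 274 and below it in 25, with a median gap of 0.34 on the log2 scale, while the 2 Act B libraries split evenly, with series 2 above series 1 in 148 and below it in 152. Among the 339 genes at least 4-fold higher in PB, the Act B library of series 2 was above that of series 1 in 251 and below it in 87, with a median gap of 0.11. Over all 10215 genes the PB library of series 2 was the higher in 5314 and the Act B library of series 2 in 5246. The difference between PB and Act B was larger in size in series 1 for 290 of the 339 genes and for 272 of the 300, against 6270 of all 10215 genes, with medians of 2.78 in series 1 and 2.65 in series 2 for genes that rose, and -2.71 and -2.45 for genes that fell. Igj had log2 differences of 9.1 in series 1 and 6.33 in series 2 and Pax5 of -4.39 in series 1 and -3.78 in series 2. The direction was the same in both series for all 5709 genes called. A call all but requires this, since differences of opposite sign leave a small mean and a large spread. The cause of this gap between series was not tested.

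**Figure D5:**
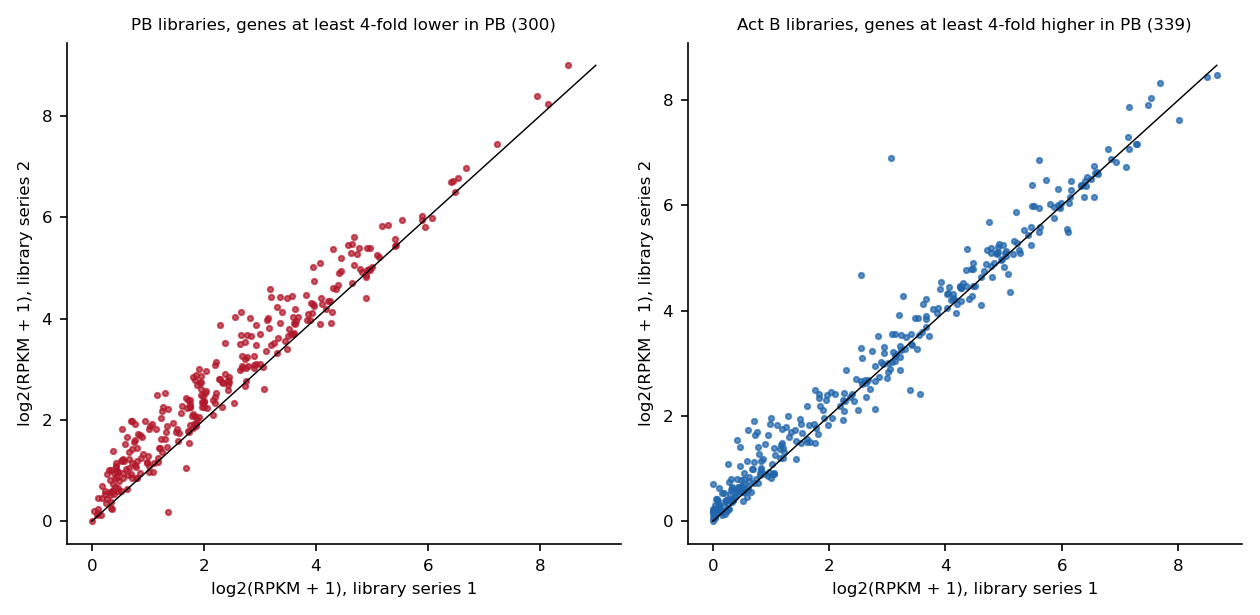
Values of series 1 (x axis) and series 2 (y axis) as log2(RPKM + 1), for the 300 genes at least 4-fold lower in PB in the PB libraries (left) and the 339 genes at least 4-fold higher in PB in the Act B libraries (right); the line marks equal values. Of the 300 genes 274 lie above the line on the left, and of the 339 genes 251 on the right.

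Whether a gene of the comparison also differed between PB and Pre-PB was tested in the same fit. PB and Pre-PB differ only in CD138 by their gates, and 226 of the 10215 genes passed (2.21%), 73 higher and 153 lower in PB. These are 0.715% and 1.5% of the genes. With library series as a block 20.7% passed, 7.21% higher and 13.5% lower. Of the 195 named genes 14 passed, 97 with the block and 22 with a pseudocount of 5. Without the first PB library 3 passed, without the second 10, without the first Pre-PB library 3, without the second 4 and without either Blimp1(GFP/fl) library 9, against 13 without either Act B library. The 7 genes higher in PB were Sdc1, Tnfrsf17, Cd28, Cpeb3, Slc3a2, Pycr1 and Edem2. Tnfrsf17 was at 10.4 and 10.6 RPKM in PB and 1.36 and 0.867 RPKM in Pre-PB (log2 difference 2.45 ± 0.15, adjusted p = 0.00284). Cd28 was at 18.5 and 16.7 RPKM in PB and 8.3 and 6.89 RPKM in Pre-PB (log2 difference 1.12 ± 0.12, adjusted p = 0.0114). Sdc1, the gate itself, was at 32.7 and 30.5 RPKM in PB and 2.19 and 2.12 RPKM in Pre-PB. The 7 genes lower in PB included Cxcr5, H2-Aa, H2-DMa, Flt3, Ccr7 and Cdkn2a. Cxcr5 was at 11.2 and 14 RPKM in PB and 42.5 and 38.2 RPKM in Pre-PB (log2 difference -1.61 ± 0.12, adjusted p = 0.00433), with Act B at 88.7 and 89 RPKM. H2-Aa was at 613 and 761 RPKM in PB and 1613 and 1816 RPKM in Pre-PB (log2 difference -1.32 ± 0.14, adjusted p = 0.0113). Cdkn2a was at 102 and 103 RPKM in PB and 188 and 177 RPKM in Pre-PB (log2 difference -0.83 ± 0.10, adjusted p = 0.0147), with Act B below both at 18.8 and 22.1 RPKM. For Pax5, Spib and Klf2 the PB and Pre-PB libraries overlapped: Pax5 stood at 8.25 and 20.5 RPKM in PB and 13.5 and 25.6 RPKM in Pre-PB (log2 difference -0.48 ± 0.48, adjusted p = 0.747), and with the block its adjusted p was 0.048. Hspa5 stood at 1454 and 1940.5 RPKM in PB and 1195 and 1851 RPKM in Pre-PB (log2 difference 0.18 ± 0.31, adjusted p = 0.893). Both comparisons share the PB libraries, so they are not independent.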

How the data were processed

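Per the labels' protocols, messenger RNA was purified, libraries kept the strand and reads were 50 nucleotides long. Build mm9 and the tools SICER, TopHat 1.4.1, HTSeq 0.5.3 and DESeq 1.8.3 are named without a role, per the submitters' processing notes. No annotation or strand setting of the counting is stated, so overlapping genes and close paralogs are uncertain. The authors deposited RPKM values, GC-normalized per the file names, for 8 libraries (4 groups of 2). RPKM are not counts, and the number of reads behind them is unknown, so no interval from depth is given. The 6 other RNA files hold other groups or another unit and were not used. From the 11567 entries of each file, 126 whose name (61 names) occurs more than once were left out, leaving 11441, of which 9776 matched a GRCm38 symbol and 1294 a synonym.

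Genes reaching 1 RPKM in 2 or more of the 4 PB and Act B libraries were fitted as log2(RPKM + 1) with limma 3.58.1 in R 4.3.3 (lmFit, eBayes with trend, two-sided) over all 8 libraries, without further scaling. On this scale, changes of low genes are understated. P-values measure the spread between 2 libraries a group, which the labels do not say are separate animals or cultures. Library numbers fall into an earlier and a later series, with 1 library of each group. Differences between the 2 libraries of a group correlated over genes at 0.674 to 0.787 in all 6 pairs of groups. The series was therefore fitted as a block, but only as an alternative. The main fit has no block, so its p-values count the shared difference between series as spread. Named genes were Prdm1 and Sdc1, the 12 largest rises and falls without overlap, key genes and the 4 largest changes of each of 32 lists, the 10 highest genes of each group, and genes under 1 RPKM in a group and at 20 or more in the other; Ms4a1, Copb1 and Cxcl10 were added for the markers and motifs. Members and lists were chosen with earlier results of these data known. Python 3.11.15, pandas 2.3.3 and matplotlib 3.10.9 were used. The fit was also run on simulated data, where it called 14.3% of log2 changes of 0.5 and 63.6% of changes of 1. Those data had few changed genes and no difference between series, so they do not show how the fit performs here.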

Additional observations from a re-analysis of the deposited data

How the results depend on the processing

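Over 17 alternatives the number of genes called stayed between 4510 and 7782, with 1793 to 2898 higher and 2577 to 4884 lower in PB, each within 1.5 times the reported count. Of the 179 named genes called, 163 were called under every alternative that tested them, and the block changed the call of 10 named genes, all gained, given above where they are described or here: Nfkbia, Rplp1, Rpl8 and Rps26. It changed no other call among the 195 genes named by the rule, and of the 3 added genes it changed that of Ms4a1. Fold changes that turned sign were those of genes that did not pass. After median-of-ratios scaling Ndufs1 was at 0.16, Tlr4 at 0.016, Mcm2 at 0.00064, Myc at 0.11 and Ezh2 at 0.076. Leaving out a library moved the log2 fold change of Ndufs1 between -0.13 and 0.076, of Slc2a1 between -0.047 and 0.076, of Tlr4 between -0.27 and 0.011, of Ccnb1 between -0.45 and 0.074, of Myc between -0.29 and 0.11, of Fos between -0.037 and 2.3 and of Ezh2 between -0.39 and 0.15. Named genes that passed between PB and Pre-PB numbered 22 with a pseudocount of 5 and 97 with the block, and 3 to 13 when a library was left out. The cause of these changes was not tested.

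The read depth of the deposited values is unknown, so how far it limits the low genes cannot be stated. With 2 libraries in each group, leaving out a library leaves a lone library that is assumed to vary like the other groups.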

Other observations

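Some genes stood highest in Pre-PB. Apoe, which encodes a lipid-carrying protein, was at 34.7 and 51.2 RPKM in PB, 338 and 435 RPKM in Pre-PB and 33.8 and 38.6 RPKM in Act B, and limma gave PB lower than Pre-PB (log2 difference -3.15 ± 0.21, adjusted p = 0.00371), while PB against Act B did not pass (log2 fold change 0.22 ± 0.21, adjusted p = 0.41). Ccl5, a chemokine, was at 23 and 20.5 RPKM in PB, 71.3 and 52.4 RPKM in Pre-PB and 35.2 and 29.8 RPKM in Act B, again with PB below Pre-PB (log2 difference -1.45 ± 0.16, adjusted p = 0.0126). Itgb3, the beta 3 integrin chain, was at 1.95 and 2.49 RPKM in PB, 5.56 and 7.72 RPKM in Pre-PB and 1.93 and 2.37 RPKM in Act B (log2 difference -1.24 ± 0.22, adjusted p = 0.0455). In the opposite direction Ly6c1, a surface protein of plasma cells, was at 25.3 and 19.3 RPKM in PB, 6.53 and 4.86 RPKM in Pre-PB and 0.809 and 1.26 RPKM in Act B (log2 difference 1.8 ± 0.20, adjusted p = 0.0126). These 4 genes are list members that were chosen after their values were seen.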
